A study of Mus musculus with 36 samples.

Results

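The 40 genes described here are the glycolytic and hypoxia-response genes of a fixed list: 4 glucose and lactate transporters, 15 glycolytic enzymes, 2 regulators of glycolytic flux, 3 genes of lactate and pyruvate handling, 3 genes of oxygen sensing and 13 further genes that hypoxia is known to induce. They were chosen by symbol, with earlier results of these data known, and all 40 are among the 43472 genes of the count table. They were measured in primary enteric glial cells (EGCs), the glia of the gut's nervous system, grown from neurospheres of embryonic wild-type C57BL/6J intestine and differentiated in culture. EGCs were left unstimulated or were given medium conditioned by digested healthy colon (H-CM) or by digested MC38 tumors (TME-CM). MC38 is a mouse colon carcinoma line, and here the tumors had been grown in the colonic wall of mice. RNA was taken after 6, 12 or 24 h, with 4 libraries for each of the 9 groups and 36 in all. Oxygen, glucose and lactate in the cultures were not analysed here, and the labels do not say whether the 4 replicates of a group came from separate cultures, so p-values measure the spread between these libraries, which may be technical.

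Glycolysis splits glucose into pyruvate in the cytosol, and cells that make little use of mitochondria reduce the pyruvate to lactate and export it. Many genes of the pathway are targets of the hypoxia-inducible factors (HIFs), pairs of an oxygen-regulated alpha subunit and a stable beta subunit that bind DNA at a short core, ACGTG or GCGTG. With oxygen present, prolyl hydroxylases of the Egln family mark the alpha subunit for destruction by the von Hippel-Lindau protein, so HIF activity is set mainly at the protein level, which counts of mRNA do not show. Inflammatory signals and growth factors can also raise Hif1a mRNA and glycolytic genes where oxygen is normal.

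The libraries read each transcript from its 3′ end, so counts are not scaled by transcript length, and levels are given as CPM, a gene's counts scaled to a library of fixed size, after TMM scaling. Totals ran from 1608018 to 7552509 counts at 24 h, from 2005239 to 5961933 at 12 h and from 13518 to 5244763 at 6 h. H-CM replicate 4 of 6 h held 13518 counts, of which 55 lay in the 40 genes, so that a gene with no count there could still lie as high as 110.3 CPM, the worth of 3 counts on that scale (counting error only). A single entry, Yam1, took 11.0% to 48.6% of a library's counts, and at 6 h it took 11.0% to 14.2% in 4 libraries (TME-CM replicates 1, 3 and 4 and unstimulated replicate 4) against 37.8% to 48.6% in 7 others. Markers of enteric glia, Sox10 and S100b among them, were present in all 9 groups. In such bulk RNA, fewer cells of a type and less RNA per cell cannot be told apart.

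The promoters shown are those of 6 genes that hold ACGTG, to let the core be seen in its place. They are the first promoter that the RefSeq table (GRCm38.p6) lists for each gene, run 5′ to 3′ along the gene's own strand from 250 bases before the first transcribed base to 50 after it, and capitals mark ACGTG or, for a core on the other strand, CACGT (a joined CACGTG holds both).
Slc2a1, chr4:119108495-119108794, plus strand: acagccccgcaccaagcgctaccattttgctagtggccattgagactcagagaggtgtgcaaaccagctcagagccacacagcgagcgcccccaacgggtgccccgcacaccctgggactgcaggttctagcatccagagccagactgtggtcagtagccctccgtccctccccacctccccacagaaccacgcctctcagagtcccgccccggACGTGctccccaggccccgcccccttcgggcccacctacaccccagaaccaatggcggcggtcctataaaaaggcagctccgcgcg
Slc16a3, chr11:120948817-120949116, plus strand: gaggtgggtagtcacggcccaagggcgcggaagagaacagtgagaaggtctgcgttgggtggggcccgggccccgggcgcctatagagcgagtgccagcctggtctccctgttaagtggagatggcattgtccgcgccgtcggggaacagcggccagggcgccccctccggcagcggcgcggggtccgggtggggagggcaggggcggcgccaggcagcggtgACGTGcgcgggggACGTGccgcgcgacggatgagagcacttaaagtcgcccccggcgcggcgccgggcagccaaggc
Pgk1, chrX:106186850-106187149, plus strand: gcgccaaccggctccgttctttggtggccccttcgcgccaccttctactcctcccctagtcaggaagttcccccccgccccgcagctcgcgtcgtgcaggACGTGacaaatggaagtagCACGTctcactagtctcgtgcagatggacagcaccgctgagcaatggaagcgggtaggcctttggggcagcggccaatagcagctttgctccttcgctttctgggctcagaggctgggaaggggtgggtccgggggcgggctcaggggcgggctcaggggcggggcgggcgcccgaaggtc
Ldha, chr7:46845554-46845853, plus strand: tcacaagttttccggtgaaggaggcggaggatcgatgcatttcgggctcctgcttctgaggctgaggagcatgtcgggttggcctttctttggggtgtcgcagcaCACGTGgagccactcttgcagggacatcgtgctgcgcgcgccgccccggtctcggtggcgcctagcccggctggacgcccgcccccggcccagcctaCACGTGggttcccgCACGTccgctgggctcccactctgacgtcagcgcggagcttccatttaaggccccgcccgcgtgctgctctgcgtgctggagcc
Hif1a, chr12:73907617-73907916, plus strand: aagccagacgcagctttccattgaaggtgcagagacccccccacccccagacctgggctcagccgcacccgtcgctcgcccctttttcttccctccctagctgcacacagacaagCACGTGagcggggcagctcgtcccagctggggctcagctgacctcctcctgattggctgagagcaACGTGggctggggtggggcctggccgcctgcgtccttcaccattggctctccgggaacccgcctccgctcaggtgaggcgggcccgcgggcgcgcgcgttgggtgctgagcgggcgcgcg
Bnip3, chr7:138909457-138909756, minus strand: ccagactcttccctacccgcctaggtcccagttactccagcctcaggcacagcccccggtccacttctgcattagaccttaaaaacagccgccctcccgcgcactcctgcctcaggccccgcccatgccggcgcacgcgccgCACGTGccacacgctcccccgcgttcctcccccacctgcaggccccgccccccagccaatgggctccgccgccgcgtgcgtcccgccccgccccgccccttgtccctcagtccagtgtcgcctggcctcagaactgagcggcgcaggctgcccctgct

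Slc2a1 held 1 ACGTG, 36 bases before its start, and 1 GCGTG, 61 bases before it. Slc16a3 held ACGTG at 27 and 14 bases before its start. Ldha, Hif1a and Bnip3 each carried the joined form CACGTG. The RefSeq table held a promoter for 37 of the 40 genes, all but Slc2a3, Bnip3l and Ndrg1. ACGTG, read on either strand, was found in at least 1 promoter of 26 of the 37, which is 70.3%, against 23.2% of the 17492 protein-coding genes in the same table. GCGTG was found in 25 and the joined CACGTG, where both strands match, in 6, against 41.4% and 8.91% of these protein-coding genes. Of the 19 with a promoter that were higher in TME-CM than in H-CM EGCs at 24 h, 15 held ACGTG, as did 11 of the other 18. Among the 19, Pfkl, Tpi1, Pdk1 and Adm held no ACGTG, and their promoters are not printed. The 40 genes were chosen as glycolytic or hypoxia-response genes, many of them HIF targets. Their share with ACGTG is therefore no test against that of all protein-coding genes. A match is a description of these letters in a 300-base window and not a sign of binding.

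**Figure D1:**
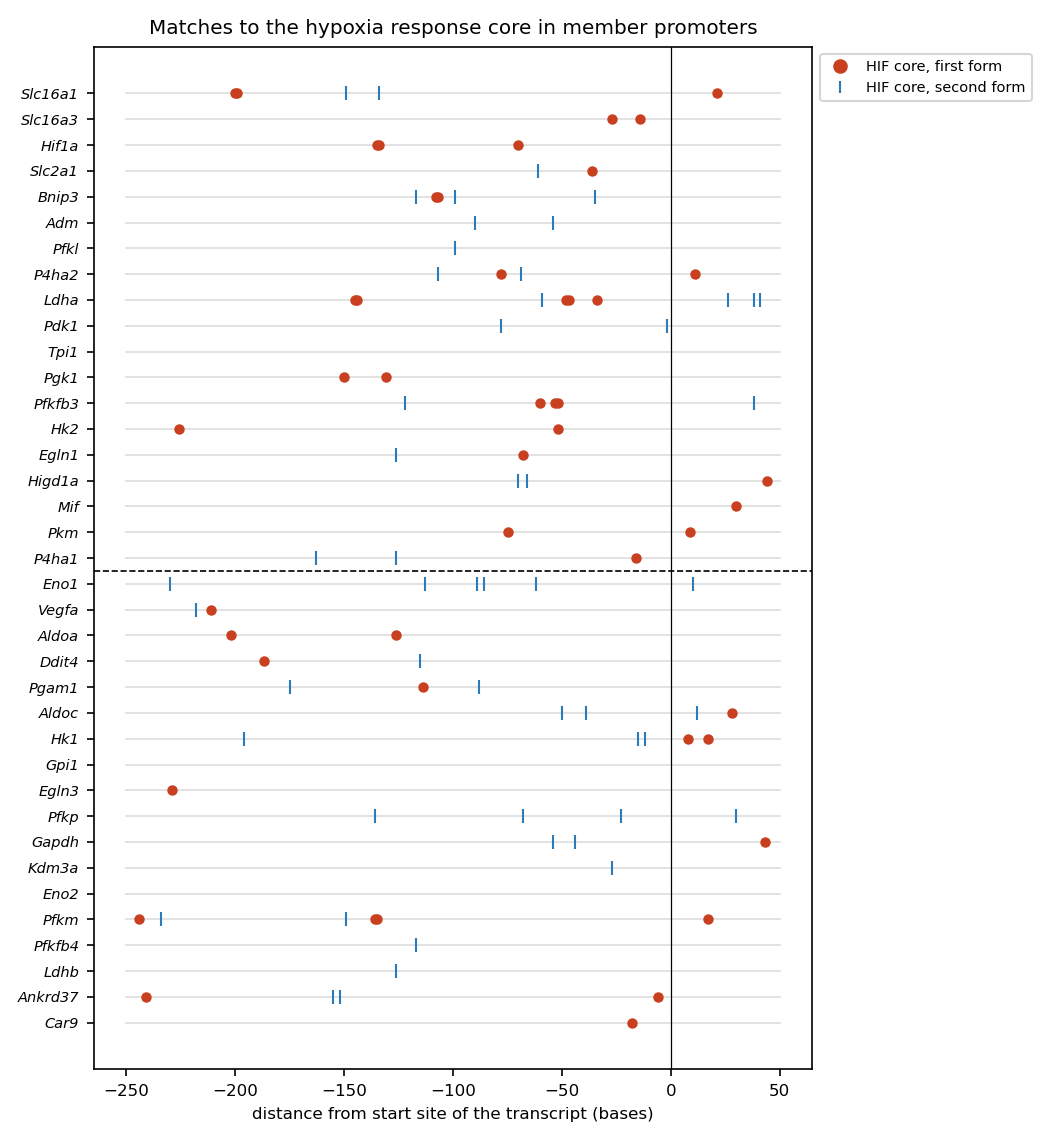
Position of each core match (horizontal axis, bases from the first transcribed base) in the promoters of 37 genes (rows), with ACGTG as circles (first form) and GCGTG as ticks (second form), read on either strand. Rows above the dashed line are the 19 genes higher in TME-CM than in H-CM at 24 h, of which 15 hold ACGTG, and below it 11 of 18 do.

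The first comparison asked how EGCs given tumor medium differed from EGCs given healthy colon medium at 24 h. TME-CM EGCs expressed more of the glucose transporter Slc2a1, of both lactate transporters, of 5 glycolytic enzymes, of Ldha and of Hif1a. With edgeR's quasi-likelihood test, 20 of the 38 genes tested were higher and 1, Ldhb, was lower at an adjusted p under 0.05. Over all 12713 genes tested, 5.4% were called in either direction and 2.75% were called higher. As the genes were chosen with results known, shares over all genes are set beside theirs as a description only. The median log2 fold change was 0.52 over the 38 genes and near 0 over all genes (0.0049). In 24 of the 38 genes every TME-CM library lay above every H-CM library, where 5.59% of all genes tested did so. A single model of all 36 libraries, whose common dispersion was 0.260 against 0.0455 for the 12 libraries of 24 h, called 2 of the genes here, Slc2a1 and Hif1a, and 0.527% of all genes.

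**Figure D2:**
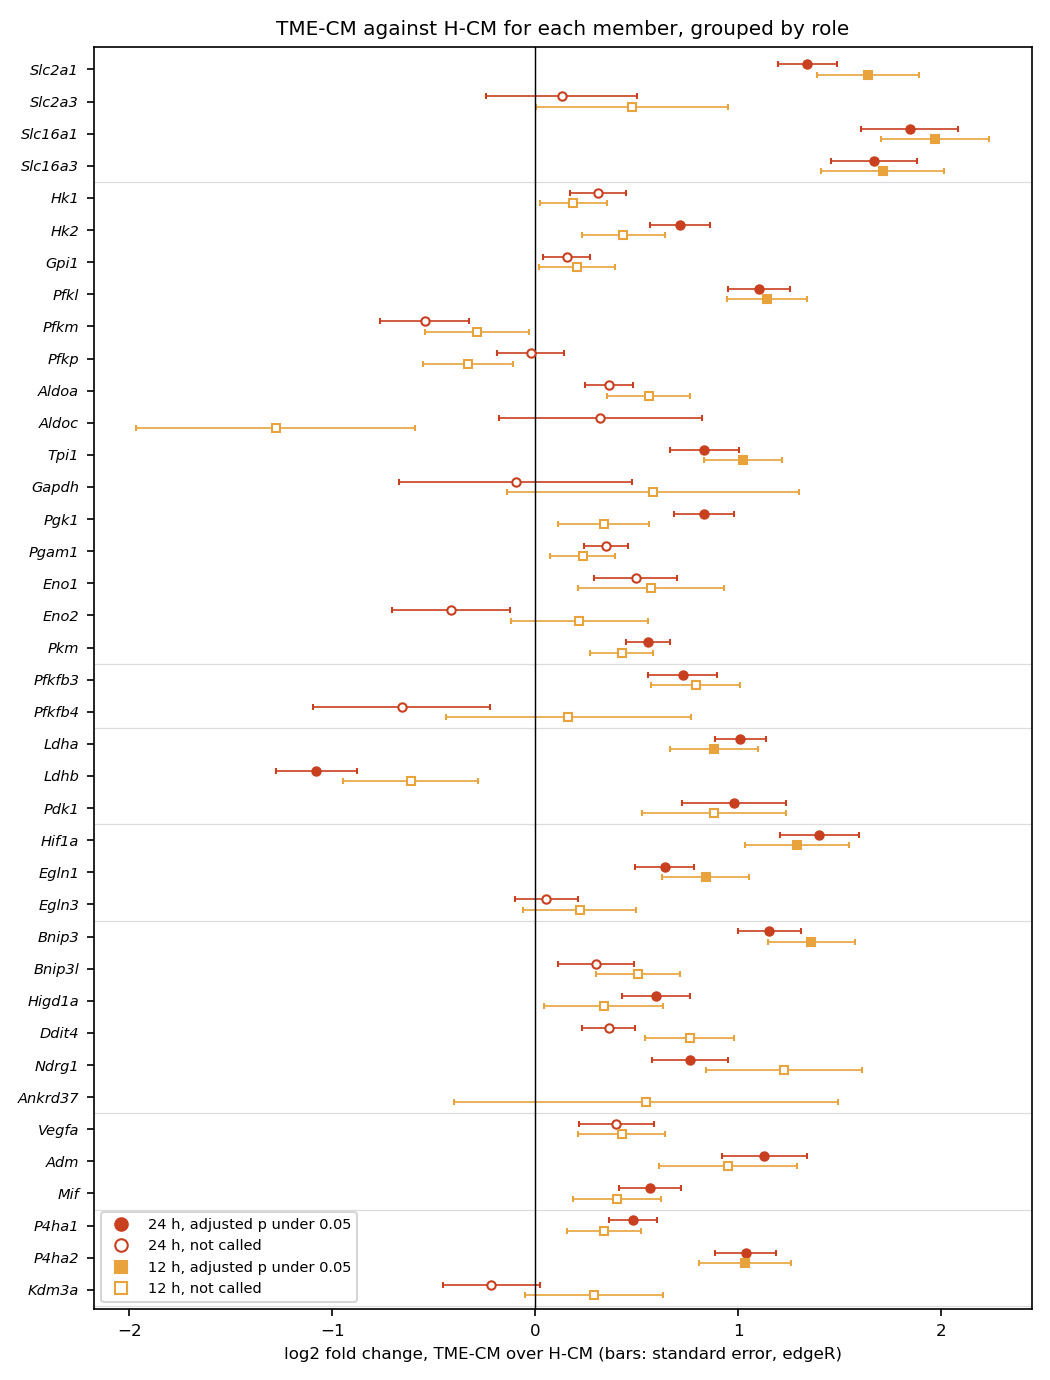
TME-CM against H-CM EGCs as log2 fold change (horizontal axis) with its standard error for each gene tested at 24 h (circles) or 12 h (squares), filled where the adjusted p was under 0.05. At 24 h, 20 genes are filled to the right of 0 and Ldhb to its left, and at 12 h 10 are filled, all to the right.

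Markers of another cell type moved with the media. Of 8 smooth muscle markers, 5 were lower in TME-CM than in H-CM at 24 h (Acta2, Myh11, Des, Cnn1 and Synpo2) and 3 at 12 h (Myh11, Cnn1 and Lmod1). Their summed level at 24 h ran from 1714 to 2435 CPM in TME-CM, from 3244 to 4020 CPM in H-CM and from 7057 to 8105 CPM in unstimulated EGCs. Of 10 markers of enteric glia 1, Cryab, was lower at 24 h, and their sum ran from 396 to 491 CPM in TME-CM and from 492 to 536 CPM in H-CM. Macrophage markers, with 0 of 7 called by edgeR and 0 at an unadjusted p under 0.05, summed to 62.8 to 333 CPM and 69.2 to 318 CPM in these media. Endothelial markers summed to 10.2 to 24.6 CPM in TME-CM and 30.7 to 60.3 CPM in H-CM, and Kdr was lower while Tek was at 0 in TME-CM. Neuronal markers had 0 of 7 called by edgeR and 1 at an unadjusted p under 0.05, and red blood cell markers 0 of 3 and 0. Over all 12713 genes tested between these media at 24 h, 2036 had such a p. The epithelial markers Krt8 and Vil1 were at 0 in both media at 24 h, and the sum of 7 such markers stayed at or below 7.66 CPM in each. Their part in the differences of the 40 genes was not tested.

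Among the transporters, 3 of 4 genes were higher. The 4 had a median of 1.51 on the log2 scale. Slc2a1 encodes GLUT1, the transporter for basal glucose uptake (gene at chr4:119108711-119137983, plus strand, GRCm38). Slc2a1 at 24 h stood at 139, 178, 124 and 121 CPM in the TME-CM libraries, at 54.1, 61.1, 53.2 and 51.4 CPM in H-CM and at 66.3, 55.8, 49.8 and 52.2 CPM in unstimulated EGCs. Here as for all genes that follow, the values are those of replicates 1 to 4. The TME-CM libraries were all above the 8 others, and the H-CM and unstimulated libraries overlapped. TME-CM exceeded H-CM 2.53-fold (log2 fold change 1.34 ± 0.14 SE, adjusted p = 3.9e-06). At 12 h, Slc2a1 read 130.0, 212, 124 and 151 CPM in TME-CM, 63.6, 49.3, 26.6 and 59.3 CPM in H-CM and 49.8, 79.7, 60.2 and 57.0 CPM in unstimulated EGCs. The 12 h difference was 3.12-fold (log2 fold change 1.64 ± 0.25 SE, adjusted p = 0.00091).

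Slc16a1 and Slc16a3 encode the monocarboxylate transporters MCT1 and MCT4, which carry lactate across the membrane, MCT4 mostly outwards. Slc16a1 at 24 h was 98.0, 50.9, 75.1 and 85.9 CPM with TME-CM, 30.7, 12.0, 21.9 and 22.7 CPM with H-CM and 15.3, 23.5, 20.0 and 17.5 CPM unstimulated. TME-CM exceeded H-CM 3.59-fold (log2 fold change 1.85 ± 0.24 SE, adjusted p = 5.2e-05). The lowest TME-CM library was still above the highest H-CM one. Slc16a1 at 12 h was 94.1, 53.9, 79.3 and 56.4 CPM in TME-CM, 23.1, 14.2, 17.3 and 18.4 CPM in H-CM and 22.9, 10.6, 15.6 and 20.9 CPM in unstimulated EGCs (3.92-fold, log2 fold change 1.97 ± 0.27 SE, adjusted p = 0.0003). For Slc16a3, the 24 h levels were 117, 124, 87.4 and 109 CPM in TME-CM, 50.6, 23.9, 25.8 and 38.6 CPM in H-CM and 28.8, 16.8, 22.8 and 22.0 CPM in unstimulated EGCs. Between the media this was 3.18-fold (log2 fold change 1.67 ± 0.21 SE, adjusted p = 4.4e-05). H-CM replicates 1 and 4 were the highest of their group, though below every TME-CM library. Slc16a3 at 12 h read 77.0, 84.2, 68.2 and 77.7 CPM in TME-CM, 39.2, 16.9, 10.7 and 27.7 CPM in H-CM and 10.2, 15.1, 15.6 and 19.1 CPM in unstimulated EGCs (3.28-fold, log2 fold change 1.71 ± 0.30 SE, adjusted p = 0.0029). Slc2a3, the high-affinity transporter of neurons, was low, with means of 6.46 CPM in TME-CM and 6.14 CPM in H-CM at 24 h, and was not called (adjusted p = 0.92).

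**Figure D3:**
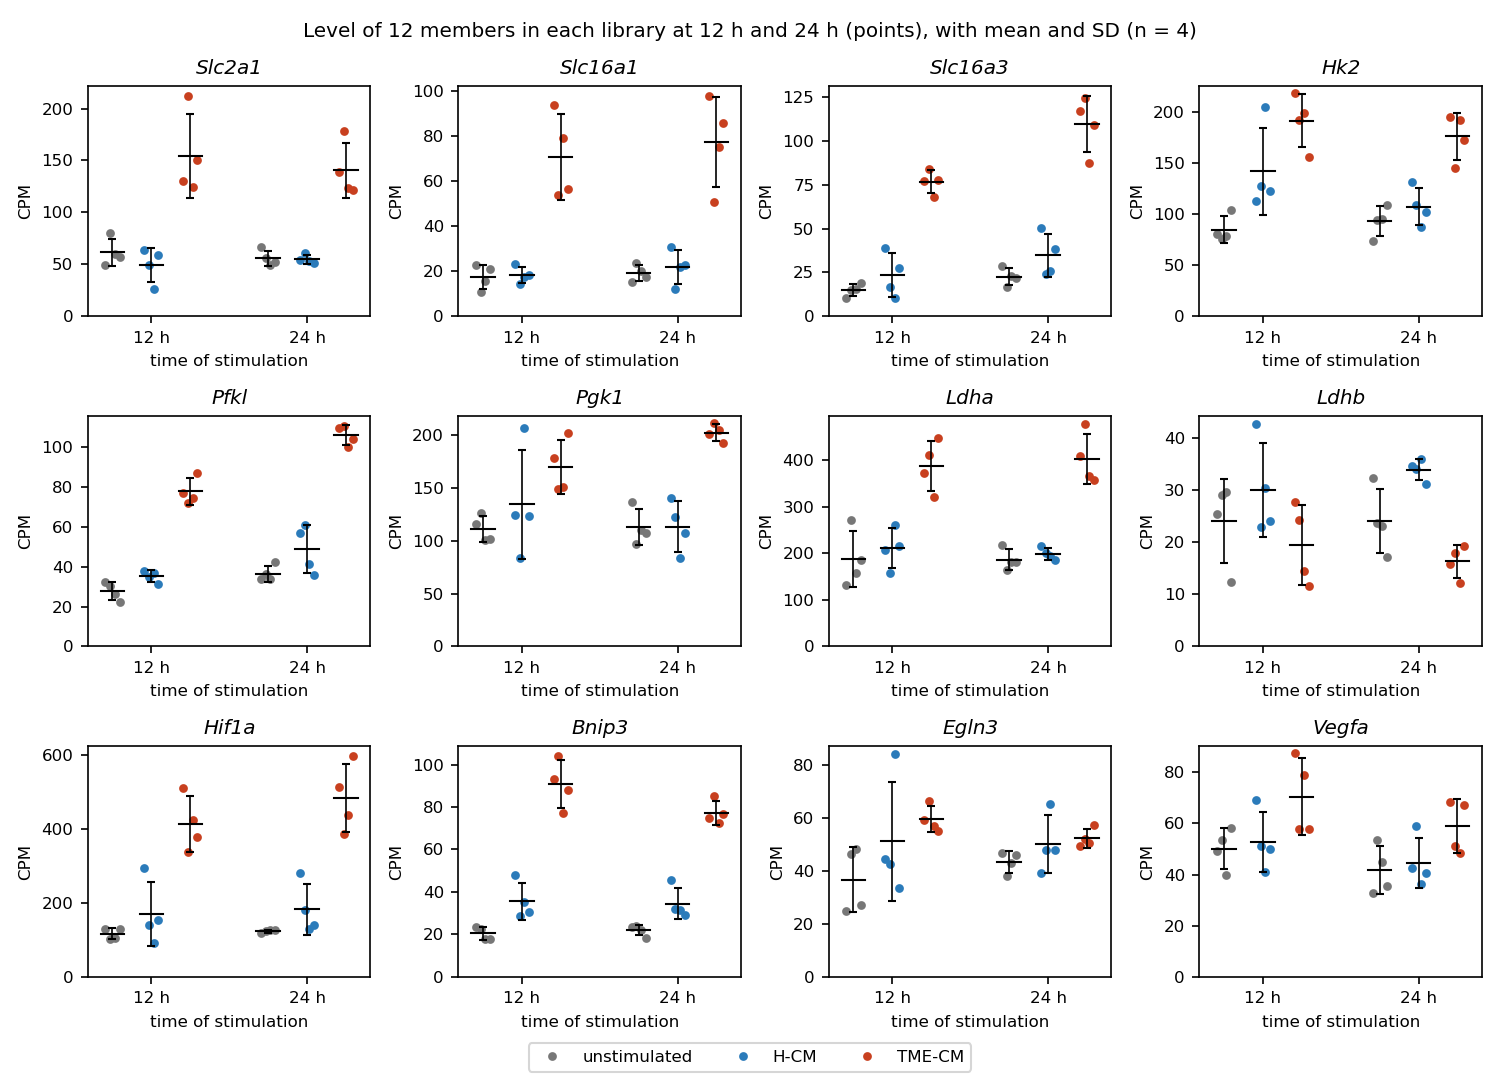
CPM of 12 genes in each library at 12 h and 24 h (points), with the mean and SD of the 4 libraries of a group (black), on axes that start at 0. TME-CM libraries of Slc2a1, Slc16a1, Slc16a3, Pfkl, Ldha, Hif1a and Bnip3 lie above all others at both times, Ldhb is lower in TME-CM than in H-CM at 24 h, and TME-CM overlaps H-CM for Egln3 and Vegfa at 24 h.

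Of the 15 glycolytic enzymes, 5 were higher at 24 h and none lower. Hk2 encodes hexokinase 2, the inducible enzyme that traps glucose in the cell by phosphorylation. Hk2 at 24 h was 195, 146, 192 and 173 CPM in TME-CM, 132, 109, 87.5 and 102 CPM in H-CM and 74.3, 94.8, 95.6 and 109.6 CPM in unstimulated EGCs. The difference from H-CM was 1.64-fold (log2 fold change 0.71 ± 0.15 SE, adjusted p = 0.0037). Every TME-CM library was above the 8 others at 24 h. At 12 h, Hk2 was 219, 192, 199.9 and 156 CPM in TME-CM, 113, 127, 205 and 123 CPM in H-CM and 80.7, 75.6, 79.0 and 104 CPM in unstimulated EGCs. H-CM replicate 3 lay inside the TME-CM range (adjusted p = 0.45). Its constitutive relative Hk1 had means of 93.7 CPM and 75.1 CPM at 24 h and was not called (adjusted p = 0.26), though its 4 TME-CM libraries lay above the H-CM ones.

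Phosphofructokinase, the committed step, has liver, muscle and platelet subunits, of which 1, Pfkl, was called. Pfkl at 24 h was 109.7, 111, 100.18 and 104 CPM with TME-CM, 56.7, 61.1, 41.4 and 36.1 CPM with H-CM and 33.8, 36.1, 33.9 and 42.3 CPM unstimulated. The fit gave 2.15-fold (log2 fold change 1.10 ± 0.15 SE, adjusted p = 7.7e-05). Pfkl at 12 h read 77.2, 71.9, 74.7 and 87.2 CPM in TME-CM, 37.9, 35.0, 37.1 and 31.5 CPM in H-CM and 32.5, 30.3, 26.4 and 22.3 CPM in unstimulated EGCs (2.21-fold, log2 fold change 1.14 ± 0.20 SE, adjusted p = 0.0022). Neither Pfkm (log2 fold change -0.55 ± 0.22 SE, adjusted p = 0.20) nor Pfkp (-0.02 ± 0.17 SE, adjusted p = 0.97) was called at 24 h, and whether their changes differ from that of Pfkl was not tested. Pfkfb3 makes the allosteric activator of phosphofructokinase. Its 24 h levels were 73.6, 64.7, 74.5 and 66.0 CPM in TME-CM, 37.4, 42.9, 49.7 and 37.1 CPM in H-CM and 27.3, 53.4, 40.3 and 48.5 CPM unstimulated (1.65-fold, log2 fold change 0.73 ± 0.17 SE, adjusted p = 0.011). Pfkfb3 at 12 h read 105, 63.1, 86.4 and 53.1 CPM in TME-CM, 45.1, 52.2, 43.7 and 37.7 CPM in H-CM and 35.5, 45.8, 38.6 and 42.3 CPM in unstimulated EGCs (adjusted p = 0.077 against H-CM). Pfkfb4, the other flux regulator on the list, averaged 2.51 CPM in TME-CM and 4.12 CPM in H-CM and was not called.

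Among the later steps, Tpi1, Pgk1 and Pkm were higher. Tpi1, triose phosphate isomerase, was at 131, 173, 149 and 135 CPM in TME-CM, 104, 85.2, 61.7 and 77.6 CPM in H-CM and 100.36, 59.5, 69.9 and 70.8 CPM in unstimulated EGCs at 24 h (1.78-fold, log2 fold change 0.83 ± 0.17 SE, adjusted p = 0.0032). Tpi1 at 12 h read 127, 129, 105 and 163 CPM in TME-CM, 67.6, 51.2, 67.2 and 72.4 CPM in H-CM and 79.7, 85.1, 69.0 and 59.5 CPM in unstimulated EGCs (2.03-fold, log2 fold change 1.02 ± 0.19 SE, adjusted p = 0.0052). The groups of TME-CM and H-CM did not overlap at either time. Pgk1, phosphoglycerate kinase and the first enzyme of the pathway to yield ATP, was at 200.1, 211, 205 and 192 CPM in TME-CM, 141, 122, 83.3 and 107 CPM in H-CM and 136, 96.3, 110.3 and 107 CPM in unstimulated EGCs at 24 h (1.78-fold, log2 fold change 0.83 ± 0.15 SE, adjusted p = 0.00094). At 12 h Pgk1 read 178, 149, 150.2 and 202 CPM in TME-CM, 124, 83.6, 206 and 123 CPM in H-CM and 116, 126, 101 and 101 CPM in unstimulated EGCs. H-CM replicate 3 was above every TME-CM library (adjusted p = 0.67). Pyruvate kinase, Pkm, whose isoforms these counts do not separate, was at 1092, 938, 1038 and 1113 CPM in TME-CM, 740.2, 684, 654 and 762 CPM in H-CM and 684, 672, 619.5 and 667 CPM in unstimulated EGCs at 24 h (1.47-fold, log2 fold change 0.55 ± 0.11 SE, adjusted p = 0.0023). Pkm at 12 h was 887, 937, 719 and 918 CPM in TME-CM, 719, 640.1, 557 and 670.1 CPM in H-CM and 582, 612, 505 and 585 CPM in unstimulated EGCs (adjusted p = 0.24).

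Aldoa and Pgam1, an aldolase and a phosphoglycerate mutase, had TME-CM libraries all above the H-CM libraries at 24 h but were not called (1.29-fold, adjusted p = 0.083, and 1.27-fold, adjusted p = 0.060). Gpi1, Pfkm, Pfkp, Aldoc, Gapdh, Eno1 and Eno2 overlapped between the media. Gapdh, which most cells use at a high level, had 547 counts in all 36 libraries together. Of the 50-base windows near the 3′ ends of its transcripts, 78.3% also occur in other annotated genes, 169 of them pseudogenes, and for Eno1 the share was 86.9%. The authors discarded reads that map to several loci, so both are uncertain here. Mif (72.9%) and Bnip3 (46.8%) also share windows, as do Pfkp, Gpi1, Higd1a, Pkm, Ldha, Tpi1, Aldoa and Ldhb at 12.7% to 25%. For Pfkp the only sharing gene was Pitrm1, which is no pseudogene and overlaps 748 exon bases of Pfkp on the opposite strand. Among the genes sharing windows with Bnip3 and Gpi1, Gm45507 and Gm26762 overlap them in this way too. Reads from such overlaps need not map to several loci. Some exon bases also lie in other annotated genes (105 in Slc2a1, 478 in Hif1a, 504 in Bnip3, 683 in Higd1a, 556 in Ndrg1, 767 in Pkm and 34 in Tpi1), mostly as antisense partners. Whether counting used strand is not given in the sources used here, so reads of such pairs cannot be told apart there.

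Lactate dehydrogenase showed opposite changes of its subunits. Ldha, the muscle-type subunit that favours lactate, at 24 h was 409, 477, 366 and 358 CPM in TME-CM, 216, 201, 194 and 185 CPM in H-CM and 219, 164, 181 and 182 CPM in unstimulated EGCs. TME-CM exceeded H-CM 2.01-fold (log2 fold change 1.01 ± 0.13 SE, adjusted p = 2e-05). Ldha at 12 h read 371, 411, 321 and 447 CPM in TME-CM, 208, 158, 262 and 216 CPM in H-CM and 133, 272, 159 and 186 CPM in unstimulated EGCs (1.84-fold, log2 fold change 0.88 ± 0.22 SE, adjusted p = 0.035). The 12 h call of Ldha held without TME-CM replicate 3 or H-CM replicate 3 and was lost in the other 6 of 8 fits that leave out 1 library, with adjusted p up to 0.15. Ldhb, the heart-type subunit, was at 15.8, 17.99, 12.2 and 19.3 CPM in TME-CM, 34.6, 34.1, 35.99 and 31.1 CPM in H-CM and 32.3, 23.7, 23.2 and 17.3 CPM in unstimulated EGCs at 24 h. It was lower in TME-CM than in H-CM (log2 fold change -1.08 ± 0.20 SE, adjusted p = 0.0014). Against unstimulated EGCs, Ldhb was not called (log2 fold change -0.57, adjusted p = 0.085). At 12 h Ldhb read 27.7, 24.4, 14.6 and 11.5 CPM in TME-CM, 42.7, 23.0, 30.5 and 24.1 CPM in H-CM and 25.4, 29.0, 29.6 and 12.4 CPM in unstimulated EGCs and was not called. Pdk1, the kinase that shuts pyruvate dehydrogenase and so keeps pyruvate out of the mitochondria, was at 26.5, 16.1, 22.2 and 18.9 CPM in TME-CM, 15.5, 10.7, 7.198 and 9.39 CPM in H-CM and 7.76, 6.72, 7.74 and 11.7 CPM in unstimulated EGCs at 24 h (1.97-fold, log2 fold change 0.98 ± 0.26 SE, adjusted p = 0.024). That call was lost without TME-CM replicate 1 or 3 and without H-CM replicate 2, 3 or 4, with adjusted p up to 0.13. Pdk1 at 12 h read 24.2, 31.1, 24.1 and 20.5 CPM in TME-CM, 12.9, 9.68, 22.8 and 9.05 CPM in H-CM and 6.60, 5.72, 13.7 and 6.15 CPM in unstimulated EGCs (adjusted p = 0.34).

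Oxygen sensing was represented by Hif1a, the alpha subunit HIF-1α, and by the hydroxylases Egln1 and Egln3. Hif1a mRNA at 24 h was 513, 385, 438 and 597 CPM in TME-CM, 281, 179.9, 130.2 and 139 CPM in H-CM and 118, 123, 127 and 127 CPM in unstimulated EGCs. Every TME-CM library was above every H-CM library, and H-CM replicate 1 was the highest of its group (2.64-fold, log2 fold change 1.40 ± 0.19 SE, adjusted p = 0.00016). Hif1a at 12 h read 512, 337, 424 and 379 CPM in TME-CM, 295, 139, 92.2 and 153 CPM in H-CM and 129, 102, 105 and 129 CPM in unstimulated EGCs (2.45-fold, log2 fold change 1.29 ± 0.26 SE, adjusted p = 0.0081). Egln1, the main hydroxylase of HIF-1α, was at 102, 80.8, 82.6 and 65.5 CPM in TME-CM, 57.9, 55.0, 49.6 and 49.4 CPM in H-CM and 63.8, 62.4, 62.5 and 50.4 CPM in unstimulated EGCs at 24 h (1.56-fold, log2 fold change 0.64 ± 0.14 SE, adjusted p = 0.0085). It lost the call without TME-CM replicate 1 (adjusted p = 0.054). Egln1 at 12 h read 74.8, 68.7, 78.1 and 86.4 CPM in TME-CM, 41.9, 38.7, 38.0 and 54.0 CPM in H-CM and 61.4, 31.5, 55.0 and 53.1 CPM in unstimulated EGCs (1.79-fold, log2 fold change 0.84 ± 0.21 SE, adjusted p = 0.044). Egln1 lost the 12 h call in 7 of 8 fits without 1 library, all but that without H-CM replicate 4, with adjusted p up to 0.17. Egln3, in many cells a strongly HIF-induced gene, was at 49.2, 52.1, 50.6 and 57.4 CPM in TME-CM, 39.0, 47.7, 65.2 and 48.0 CPM in H-CM and 46.8, 37.9, 42.8 and 45.9 CPM in unstimulated EGCs at 24 h. The media overlapped (log2 fold change 0.06 ± 0.15 SE, adjusted p = 0.92). Egln3 at 12 h read 59.3, 66.3, 56.9 and 55.1 CPM in TME-CM, 44.3, 42.4, 84.0 and 33.6 CPM in H-CM and 24.9, 46.2, 48.3 and 27.2 CPM in unstimulated EGCs (adjusted p = 0.85).

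Among the mitochondrial and stress genes, 3 of 5 tested were higher at 24 h. Bnip3, a mitophagy receptor of the outer mitochondrial membrane, was at 74.9, 85.4, 72.4 and 76.5 CPM in TME-CM, 45.4, 31.7, 31.4 and 29.2 CPM in H-CM and 23.3, 23.7, 22.2 and 18.4 CPM in unstimulated EGCs (2.22-fold, log2 fold change 1.15 ± 0.16 SE, adjusted p = 5.2e-05). Bnip3 at 12 h read 93.1, 104, 77.1 and 88.2 CPM in TME-CM, 47.8, 28.7, 35.1 and 30.5 CPM in H-CM and 23.4, 22.5, 17.97 and 17.6 CPM in unstimulated EGCs (2.57-fold, log2 fold change 1.36 ± 0.21 SE, adjusted p = 0.0011). TME-CM was above H-CM and H-CM above unstimulated in every library at both times. Higd1a, which encodes a small mitochondrial protein, was at 61.9, 82.3, 65.1 and 45.9 CPM in TME-CM, 41.0, 43.4, 43.8 and 38.6 CPM in H-CM and 54.6, 35.8, 45.5 and 39.8 CPM in unstimulated EGCs at 24 h (1.51-fold, log2 fold change 0.59 ± 0.17 SE, adjusted p = 0.04). The Higd1a call was lost in 7 of 8 fits without 1 library, all but that without TME-CM replicate 4, with adjusted p up to 0.12. Its 12 h levels were 59.3, 83.8, 50.2 and 48.2 CPM in TME-CM, 32.8, 32.9, 89.0 and 35.9 CPM in H-CM and 42.7, 42.1, 44.9 and 36.5 CPM in unstimulated EGCs (adjusted p = 0.76). Ndrg1, a stress-responsive gene, was at 42.8, 50.2, 35.7 and 43.9 CPM in TME-CM, 29.7, 17.6, 24.0 and 31.1 CPM in H-CM and 18.02, 16.5, 21.4 and 20.6 CPM in unstimulated EGCs at 24 h (1.70-fold, log2 fold change 0.76 ± 0.19 SE, adjusted p = 0.014). The Ndrg1 call was lost without H-CM replicate 2 or 3 (adjusted p up to 0.084). Ndrg1 at 12 h read 51.3, 28.3, 38.9 and 34.1 CPM in TME-CM, 20.4, 17.4, 3.41 and 24.4 CPM in H-CM and 17.3, 20.9, 12.2 and 20.2 CPM in unstimulated EGCs. The media did not overlap, but Ndrg1 was not called (adjusted p = 0.14). Bnip3l (adjusted p = 0.48) and Ddit4, an inhibitor of mTORC1 (adjusted p = 0.13), were not called, and Ankrd37 was too low to be tested at 24 h.

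Secreted factors gave 2 higher genes of 3. Adm, the vasodilator adrenomedullin, was at 32.4, 32.5, 48.6 and 33.8 CPM in TME-CM, 15.9, 12.9, 19.8 and 19.3 CPM in H-CM and 13.3, 13.4, 16.7 and 21.5 CPM in unstimulated EGCs at 24 h (2.19-fold, log2 fold change 1.13 ± 0.21 SE, adjusted p = 0.0015). Adm at 12 h read 27.3, 47.1, 17.8 and 20.8 CPM in TME-CM, 17.2, 10.4, 15.5 and 15.3 CPM in H-CM and 12.7, 14.3, 6.61 and 15.2 CPM in unstimulated EGCs (adjusted p = 0.23). Mif, the cytokine macrophage migration inhibitory factor, was at 158, 209.8, 165 and 180.2 CPM in TME-CM, 152, 112, 107 and 109 CPM in H-CM and 113, 72.6, 81.6 and 80.8 CPM in unstimulated EGCs at 24 h (1.48-fold, log2 fold change 0.56 ± 0.15 SE, adjusted p = 0.03). Mif lost the call without TME-CM replicate 2 or 4 and without H-CM replicate 2, 3 or 4, with adjusted p up to 0.13. Its 12 h levels were 134, 152, 112 and 175 CPM in TME-CM, 122, 66.8, 146 and 100.03 CPM in H-CM and 88.4, 82.2, 84.3 and 75.1 CPM in unstimulated EGCs (adjusted p = 0.55). Vegfa, the angiogenic growth factor that is the textbook HIF target, did not pass the test. Vegfa at 24 h was 68.5, 51.3, 48.5 and 67.3 CPM in TME-CM, 42.6, 58.9, 36.2 and 40.5 CPM in H-CM and 32.8, 53.4, 45.0 and 35.6 CPM in unstimulated EGCs. H-CM replicate 2 lay inside the TME-CM range (log2 fold change 0.40 ± 0.18 SE, adjusted p = 0.28). At 12 h Vegfa read 87.4, 57.9, 78.9 and 57.7 CPM in TME-CM, 69.0, 51.2, 41.0 and 50.1 CPM in H-CM and 49.3, 53.6, 39.6 and 58.2 CPM in unstimulated EGCs (adjusted p = 0.50).

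P4ha1 and P4ha2, the catalytic subunits of collagen prolyl 4-hydroxylase, were both higher at 24 h. P4ha2 was at 112, 131, 100.45 and 119.9 CPM in TME-CM, 62.7, 55.6, 54.1 and 51.4 CPM in H-CM and 70.6, 44.5, 45.2 and 50.1 CPM in unstimulated EGCs (2.05-fold, log2 fold change 1.04 ± 0.15 SE, adjusted p = 0.00013). P4ha2 at 12 h read 143, 132, 126 and 140.0 CPM in TME-CM, 78.1, 41.0, 94.0 and 51.8 CPM in H-CM and 43.2, 43.3, 58.7 and 55.2 CPM in unstimulated EGCs (2.05-fold, log2 fold change 1.03 ± 0.23 SE, adjusted p = 0.018). The 12 h call of P4ha2 was lost without TME-CM replicate 1 or 4 and without H-CM replicate 2 or 4, with adjusted p up to 0.083. The groups of the media did not overlap at either time. P4ha1 was at 190.0, 168, 177 and 168 CPM in TME-CM, 123, 142, 113 and 125 CPM in H-CM and 123, 138, 152 and 141 CPM in unstimulated EGCs at 24 h (1.40-fold, log2 fold change 0.48 ± 0.12 SE, adjusted p = 0.015). P4ha1 lost the call without TME-CM replicate 1 or H-CM replicate 3 (adjusted p up to 0.084). Its 12 h levels were 147, 108, 160.5 and 155 CPM in TME-CM, 119, 109, 109.7 and 116 CPM in H-CM and 119, 81.0, 125 and 125 CPM in unstimulated EGCs (adjusted p = 0.55). The histone demethylase Kdm3a averaged 11.3 CPM in TME-CM and 13.5 CPM in H-CM and was not called. Car9, carbonic anhydrase 9, a gene whose transcription depends strongly on HIF, had 0 counts in all 12 libraries of 24 h, which allows up to 0.327 CPM in the deepest and 1.48 CPM in the shallowest of them. It was at 0 in all TME-CM libraries of 6 h and 12 h too. Its 20 counts in all lay in H-CM replicates 1 and 3 of 6 h, with 5 each, in unstimulated replicate 2 of 12 h, with 7, and in H-CM replicates 2 and 4 of 12 h, with 2 and 1.

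At 12 h, 10 of the 39 genes tested were higher in TME-CM than in H-CM EGCs and none lower, where 1.89% of the 12156 genes tested were called in either direction and 1.22% higher. All 10 were also called at 24 h. The other 10 genes called higher at 24 h had positive fold changes at 12 h, and 6 of them had an unadjusted p under 0.05. Of all 39 genes tested at 12 h, 19 had such a p, as did 1288 of the 12156. Whether TME-CM and H-CM lay further apart at 24 h than at 12 h was asked in a fit of 24 libraries. There edgeR called 0 of 39 genes and 0% of all genes, and DESeq2 called 0 of the 39. At an unadjusted p under 0.05 edgeR had 0 of the 39 genes and 436 of all 13105. From 12 h to 24 h, 0 of the 39 genes were called by either tool in unstimulated, H-CM or TME-CM EGCs. The shares of all genes called were 0.0153%, 0.00763% and 0.626%. At an unadjusted p under 0.05 were 2, 2 and 4 of the 39, against 694, 817 and 1034 of all 13105 genes. The model of all 36 libraries called 2 of the genes at 12 h and 0.601% of all genes.

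Against unstimulated EGCs, which share the TME-CM libraries with the comparison above, 23 genes were higher at 24 h and 0 lower (9.52% of all genes called), and 15 were higher at 12 h (4.41% called), all 15 also at 24 h. The largest difference at 24 h was that of Slc16a3, at 4.86-fold (adjusted p = 3e-07), followed by Slc16a1 at 4.06-fold and Hif1a at 3.90-fold. Aldoa, Pgam1, Bnip3l and Ddit4 passed the test against unstimulated EGCs and not against H-CM EGCs, and P4ha1 the reverse. Without unstimulated replicate 4 of 12 h, the count at 12 h was 10. In the model of all 36 libraries 8 genes were called at 24 h, and 1.97% of all genes.

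Between H-CM and unstimulated EGCs at 24 h, 1 of 38 genes was called, a share near the 2.03% of all genes called. It was Bnip3 (1.58-fold, adjusted p = 0.028). The Bnip3 call was lost without H-CM replicate 1 and without unstimulated replicate 2, 3 or 4. The number of genes called rose to 2 without unstimulated replicate 1. With an unadjusted p under 0.05 were 8 of the 38 genes and 1349 of all 12713 tested. Hif1a stood above the unstimulated range in all 4 H-CM libraries (1.48-fold, adjusted p = 0.20). At 12 h, edgeR and DESeq2 both called 0 of the genes, where edgeR called 0.403% of all genes. At an unadjusted p under 0.05 edgeR had 3 of 39, against 688 of all 12156 genes.

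The 6 h libraries gave little. edgeR called 0 of 35 genes between TME-CM and H-CM (0.0972% of all genes), and DESeq2 called 0. At an unadjusted p under 0.05 edgeR had 9 of the 35 and 562 of all 9256 genes. Between H-CM and unstimulated EGCs both tools called 0, with 0% of all genes called. At an unadjusted p under 0.05 edgeR had 0 of the 35 there, and 58 of all 9256 genes. Against unstimulated EGCs, 1 gene, Hk2, was higher in TME-CM (0.454% of all genes called). Hk2 at 6 h was 244, 199, 635 and 547 CPM in TME-CM, 134, 185, 142 and 73.5 CPM in H-CM and 111, 93.0, 94.4 and 168 CPM in unstimulated EGCs. The fold over unstimulated was 3.36 (adjusted p = 0.048). That call was lost without unstimulated replicate 1, 2 or 3, without TME-CM replicate 3 or 4, and with both libraries under 500000 counts left out. Hif1a at 6 h was 351, 211, 287 and 342 CPM in TME-CM, 128, 148, 121 and 147 CPM in H-CM and 152, 94.6, 142 and 72.8 CPM in unstimulated EGCs. TME-CM was above both other groups in every library (adjusted p = 0.60 against H-CM), though H-CM replicate 4 held only 4 counts of Hif1a. Slc2a1 at 6 h was 138, 117, 74.2 and 132 CPM in TME-CM, 111, 73.7, 109 and 110.3 CPM in H-CM and 87.3, 124, 10.5 and 117 CPM in unstimulated EGCs. Slc16a3 at 6 h was 2.10, 21.9, 21.7 and 4.64 CPM in TME-CM, 51.0, 15.3, 35.5 and 0 CPM in H-CM and 36.7, 21.9, 62.9 and 4.90 CPM in unstimulated EGCs. Both transporters overlapped between the media at 6 h. H-CM replicate 4 held 2 counts of Hk2, 3 of Slc2a1 and 0 of Slc16a3, and unstimulated replicate 3 held 2 of Slc2a1, so these levels are rough. TME-CM replicates 1, 3 and 4 were among the libraries low in Yam1, so medium and kind of library cannot be fully told apart at 6 h. The model of all 36 libraries, whose dispersion was lower than that of the 6 h libraries alone (0.572), called 11 of 39 genes higher in TME-CM than in H-CM at 6 h, where it called 6.67% of all genes. Against unstimulated EGCs it called 7 higher and 2 lower, with 8.26% of all genes called.

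A mean of log2 CPM over the 40 genes gives one value per library, described here with no test because the genes were chosen with results known. At 24 h it was 5.67 ± 0.06 (SD, n = 4) in TME-CM, 5.16 ± 0.14 in H-CM and 5.03 ± 0.04 in unstimulated EGCs, and at 12 h 5.70 ± 0.06, 5.14 ± 0.15 and 5.003 ± 0.062. The difference between TME-CM and H-CM was 0.51 at 24 h and 0.56 at 12 h. All TME-CM libraries lay above all others at both times, and H-CM replicate 1 of 24 h was the highest of the remaining ones, at 5.36. At 6 h the means were 5.10, 4.36 and 4.97, and H-CM replicate 4, the library of 13518 counts, lay at 2.78.

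**Figure D4:**
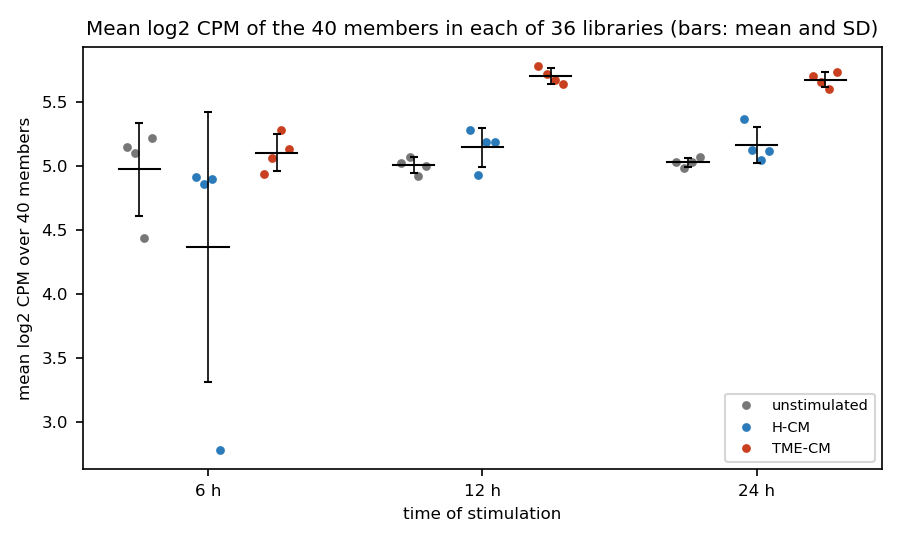
Mean log2 CPM of the 40 genes (vertical axis, not starting at 0) in each of the 36 libraries by time and medium, with the mean and SD of each group (black). The TME-CM libraries at 12 h and 24 h lie between 5.60 and 5.78, above all H-CM and unstimulated libraries, and at 6 h H-CM replicate 4 stands apart at 2.78.

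Other genes of the pathway, from lists set beside the 40, were counted in the same fit at 24 h. Among components of the HIF machinery, 0 of 9 tested genes were called by edgeR, with 2 at an unadjusted p under 0.05. Vhl, the von Hippel-Lindau gene, had an adjusted p of 0.088, and Epas1, which encodes HIF-2α, differed by 0.69 on the log2 scale (adjusted p = 0.17). Among 24 other hypoxia-induced genes 9 were higher and 0 lower, with a median log2 fold change of 0.37. Fam162a, a mitochondrial protein, stood at 184, 214, 182 and 152 CPM in TME-CM against 75.2, 86.4, 81.6 and 78.6 CPM in H-CM and 89.8, 59.6, 57.4 and 58.1 CPM in unstimulated EGCs (log2 fold change 1.18, adjusted p = 2.9e-05). Tmem45a rose by 1.46, Stc2, the hormone stanniocalcin 2, by 1.39 and Ak4, a mitochondrial adenylate kinase, by 0.98 on the same scale. Lox, a collagen crosslinker, was also higher than in H-CM, but it was lower in H-CM than in unstimulated EGCs. Lox averaged 484 CPM in TME-CM, 277 CPM in H-CM and 429 CPM in unstimulated EGCs.

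Of 22 tested genes of pyruvate entry, the pentose phosphate pathway and the tricarboxylic acid cycle, 0 were higher and 1, Gpd2, the mitochondrial glycerol phosphate dehydrogenase, was lower (log2 fold change -0.57, adjusted p = 0.048). That 1 gene of 22 is a share near the 5.4% of all genes called. The median log2 fold change of the 22 was -0.07. Of 13 tissue-restricted relatives of the 40 genes, 2 were high enough to be tested, and Eno3, the muscle enolase, was lower. Eno3 at 24 h was 6.48, 7.27, 7.12 and 9.71 CPM in TME-CM, 13.3, 24.1, 28.6 and 23.7 CPM in H-CM and 56.3, 36.8, 37.6 and 54.3 CPM in unstimulated EGCs. H-CM was itself below unstimulated (log2 fold change -1.04).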

How the data were processed

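Counts were analysed as deposited. Per the submitters' processing notes and the study's methods, the authors checked reads with FastQC 0.11.7, trimmed them, aligned them to mm10 with HISAT2, used SAMtools 1.5 and counted reads per gene with HT-seq, discarding those that map to several loci; the strand setting, the annotation release and the use of molecular identifiers are not given in the sources used here. The deposited table holds whole-number counts for 43472 gene symbols in 36 libraries, of which 23121 had at least 1 count.

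Genes were filtered with filterByExpr (minimum count 10), scaled by the TMM method and tested with edgeR 4.0.16 (quasi-likelihood, limma 3.58.1, R 4.3.3) over all genes passing the filter, with Benjamini-Hochberg adjustment and a threshold of 0.05. Each time point was fitted alone, with its 12 libraries, and 12 h and 24 h together for changes over time. Printed CPM use TMM factors from all 36 libraries, so ratios of printed means can differ a little from fitted folds. A standard error is the log2 fold change divided by the square root of the F statistic. Mean log2 CPM used a prior count of 2. The scripts recovered known changes in counts simulated from the same kind of model, with the spread estimated from these data. Such counts hold no effect of shared cultures or of kinds of library, and rates of recovery are not given here. The changes were set for the first comparison of each fit and were larger than most reported here. Recovery of smaller changes was not tried. Alternatives were DESeq2 1.42.0, its size factors, no filter, a replicate block, Yam1 left out, other sets of libraries and single libraries left out. Genes near-identical at their 3′ ends were found by exact match of 50-base windows in the last 300 bases of transcripts.

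The 40 genes and the other lists were chosen with earlier results of these data known. Values in every library of 12 h and 24 h are given for genes called between TME-CM and H-CM at either time and for 12 genes fixed by name, and up to 6 called genes per further list are named by adjusted p, save for items not reported here; at 6 h values are given for 5 genes, a departure from that rule. Replicates are as the labels number them.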

Additional observations from a re-analysis of the deposited data

Results flagged for a closer look

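In 6 of 108 groups of 4 libraries examined, the highest or lowest library stood apart by Dixon's criterion at the 95% level, which chance gives in about 1 of 20 groups. Bnip3 read 45.4 CPM in H-CM replicate 1 of 24 h against 29.2 to 31.7 CPM in the other 3, and Mif read 152 CPM in the same library against 107 to 112 CPM. Adm was at 48.6 CPM in TME-CM replicate 3 of 24 h against 32.4 to 33.8 CPM. Egln1 was lowest in unstimulated replicate 4 of 24 h, at 50.4 CPM against 62.4 to 63.8 CPM. The mean log2 CPM of the 40 genes was 4.43 in unstimulated replicate 3 of 6 h, a library of 256453 counts, against 5.10 to 5.22, and 2.78 in H-CM replicate 4 of 6 h, a library of 13518 counts, against 4.86 to 4.91. Leaving out H-CM replicate 1 of 24 h gave 22 genes called between TME-CM and H-CM in place of 21.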

How the results depend on the processing

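Of 202 recomputed counts of genes called, 180 lay within 1.5 times the reported count or stayed at a reported 0. Several comparisons had a reported count of 0, so this share says little of how firm the calls are. Of the rest, 15 fell to 0, 6 moved by more than 1.5 times and 1 rose from 0. None of the recomputed results turned direction. The call of Hk2 between TME-CM and unstimulated EGCs at 6 h gave way to 0 calls with DESeq2 size factors, with the replicate block, with only the groups compared, and with the 2 libraries of 6 h under 500000 counts left out, an alternative chosen after seeing the data. Between H-CM and unstimulated EGCs at 24 h, 3 genes were called with no filter, 0 with only the groups compared and 0 in the model of all 36 libraries. That model called 2 genes between TME-CM and H-CM at 24 h, 2 at 12 h and 11 at 6 h, and against unstimulated EGCs 8 at 24 h and 9 at 6 h, with log2 fold changes close to the reported ones (Slc16a1 at 24 h 1.83, adjusted p = 0.22) and a common dispersion of 0.260 against 0.0455, 0.122 and 0.572 at 24 h, 12 h and 6 h. The difference in mean log2 CPM at 24 h was 0.39 without TMM scaling, the cause of which was not tested.

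Leaving out single libraries gave 16 (without H-CM replicate 3) to 22 genes between TME-CM and H-CM at 24 h, 7 to 10 at 12 h and 0 at 6 h. Against unstimulated EGCs it gave 20 to 23, 10 to 16 and 0 to 1, and between H-CM and unstimulated EGCs at 24 h 0 to 2. DESeq2 called 23 (22 higher) and 12 genes between TME-CM and H-CM at 24 h and 12 h. The share of all genes that DESeq2 called is not given here, so these counts cannot be weighed against those of edgeR. At 12 h Egln1 also missed the threshold with Yam1 left out (adjusted p = 0.052), and Egln1 and P4ha2 with only the groups compared (0.059 and 0.060).

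Deviations of same-numbered libraries correlated at -0.17 to 0.13 at 24 h and -0.04 to 0.23 at 12 h, with 4 and 2 of 12 such pairs over 0.1, against 4 and 3 of 36 pairs with different numbers. At 24 h and 12 h, 6 and 5 of 12 libraries correlated best with one of their own number, which 2 of the 8 partners of each carry. As most pairs were not over 0.1, the main fits did not pair samples by number, but this rule cannot exclude shared cultures. In all 9 groups, the mean log2 CPM of 8 macrophage markers was higher in replicates 1 and 2 than in 3 and 4. At 12 h replicates 1 and 2 ran from 2.99 to 3.44, against 1.61 to 2.02 in replicates 3 and 4. At 24 h the ranges were 2.54 to 3.56 and 1.34 to 2.44. Whether the numbers mark shared cultures was not tested. With the replicate block 21 and 9 genes were called between TME-CM and H-CM at 24 h and 12 h, Ldha at 12 h falling out (adjusted p = 0.068). Depth limits the 6 h comparisons above all, where a count of 0 allows 0.639 to 110.3 CPM.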
